A study of Mus musculus with 18 samples.

Results

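Retinas of Rpe65 knockout mice were compared with retinas of control mice at an age of 2 months, the youngest age sampled. The comparison rests on 6 of the 18 arrays: knockout retinas 1, 2 and 3 and control retinas 9, 10 and 11, chosen by the genotype and age in their labels. The study as a whole profiled total RNA of whole retina on mouse expression arrays at 2, 4 and 6 months in both genotypes, with 3 biological replicates in each of the 6 groups. The knockouts are labelled with the strain RPE65-/- and the controls with the strain C57BL/6. The background strain of the knockouts, their relation to the controls, their sex and any treatment are not given in the sources used here, so the effect of the Rpe65 deletion and of other genetic differences between the lines cannot be told apart. All 3 knockouts read as male from Xist, the RNA of the silenced X chromosome, while controls 9 and 10 read as female and control 11 as male.

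RPE65 is the isomerase of the pigment epithelium that turns the retinyl ester stored there into 11-cis retinol, the precursor of the chromophore of rod and cone opsins. Without it photoreceptors are starved of chromophore. Cones, and those with the short-wave opsin above all, are known to degenerate early in such mice, while rods are lost slowly. The retina itself holds many other cell types, and the array reads all of them together: fewer cells of a type and less RNA per cell cannot be told apart.

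Each deposited value is a ratio, an array-scaled signal divided by the probe set's own typical level over the 18 arrays, so that 1 is the usual level of that gene and ratios of different genes say nothing about which gene is more abundant. A gene was read by its brightest probe set, which gave 18193 genes. In 38.0% of them that typical level lay under a fixed divisor: these genes are called dim, their ratios are noisier, and they are marked where they are named. Changes are given as the mean log2 ratio of the knockouts minus that of the controls, with the standard error (SE) of a limma fit to all 18 arrays and with n = 3 retinas per group. The threshold is an adjusted p of 0.05 (Benjamini-Hochberg over all genes), and a gene past it is said to have risen or fallen.

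At 2 months 262 of the 18193 genes passed the threshold, 1.44% of those tested. In the same limma fit 2081 of the 18193 had an unadjusted p under 0.05, the base for the unadjusted counts of lists below. Of the 262 genes past the threshold, the knockouts were higher in 102 (0.561% of all genes) and lower in 160 (0.879%). The median size of these changes was 1.09 on the log2 scale, 147 genes differed by more than 2-fold, and the median over all genes was -0.02. The leading falls included the enzyme that makes histamine, the short-wave opsin, cone arrestin, myosin VIIa and a regulator of the sodium pump. The leading rises included an angiotensin receptor, fibroblast growth factor 2, a cilium protein, glutathione reductase and rhodopsin kinase. In all 262 genes the 3 knockouts lay beyond the 3 controls on 1 side, which 18.0% of all genes did, 7.41% with the knockouts above and 10.6% with the knockouts below. The 262 calls dropped to 144 without control 11, 149 without knockout 3, 156 without knockout 2 and 170 without control 9, and 112 of the 262 genes passed whichever retina was left out.

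The promoters of 6 genes are shown because they belong to 2 groups that the results return to. Opn1sw, Arr3, Gnat2 and Samd11 are photoreceptor genes that fell together, and Abhd14a and Abhd14b are neighbours whose gene spans overlap and which changed in opposite directions. The sequences are from RefSeq, build GRCm38.p6, 250 bases before to 50 bases after the start of the gene, written 5′ to 3′ on the gene's own strand. Capitals mark TAATCC, the core to which photoreceptor homeodomain factors such as CRX bind, or GGATTA, the same core on the other strand. The Opn1sw window lies at chr6:29380464-29380763 (minus strand), the Arr3 window at chrX:100605247-100605546 (plus), the Gnat2 window at chr3:108092816-108093115 (plus) and the Samd11 window at chr4:156255293-156255592 (minus). The Abhd14a window lies at chr9:106447629-106447928 (minus) and the Abhd14b window at chr9:106448390-106448689 (plus).
Opn1sw: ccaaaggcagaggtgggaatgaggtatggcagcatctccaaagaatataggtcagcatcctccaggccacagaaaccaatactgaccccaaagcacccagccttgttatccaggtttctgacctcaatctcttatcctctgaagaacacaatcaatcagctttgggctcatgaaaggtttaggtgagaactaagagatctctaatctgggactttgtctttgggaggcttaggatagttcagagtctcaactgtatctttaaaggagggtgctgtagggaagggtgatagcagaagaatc
Arr3: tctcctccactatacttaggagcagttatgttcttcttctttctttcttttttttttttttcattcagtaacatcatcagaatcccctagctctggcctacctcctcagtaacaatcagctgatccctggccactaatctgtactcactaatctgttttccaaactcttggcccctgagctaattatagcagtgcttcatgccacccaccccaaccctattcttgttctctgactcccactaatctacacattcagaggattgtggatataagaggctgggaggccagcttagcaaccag
Gnat2: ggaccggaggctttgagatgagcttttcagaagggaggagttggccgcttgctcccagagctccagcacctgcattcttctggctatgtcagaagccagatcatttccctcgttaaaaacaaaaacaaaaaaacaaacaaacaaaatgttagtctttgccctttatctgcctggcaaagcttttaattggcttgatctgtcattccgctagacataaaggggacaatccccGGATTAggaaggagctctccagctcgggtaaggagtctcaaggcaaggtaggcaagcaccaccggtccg
Samd11: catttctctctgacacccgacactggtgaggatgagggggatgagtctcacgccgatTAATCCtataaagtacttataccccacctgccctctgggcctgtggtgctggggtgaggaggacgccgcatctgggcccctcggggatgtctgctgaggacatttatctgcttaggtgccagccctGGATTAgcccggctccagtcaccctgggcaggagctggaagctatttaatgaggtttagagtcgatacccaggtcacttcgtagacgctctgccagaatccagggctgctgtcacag
Abhd14a: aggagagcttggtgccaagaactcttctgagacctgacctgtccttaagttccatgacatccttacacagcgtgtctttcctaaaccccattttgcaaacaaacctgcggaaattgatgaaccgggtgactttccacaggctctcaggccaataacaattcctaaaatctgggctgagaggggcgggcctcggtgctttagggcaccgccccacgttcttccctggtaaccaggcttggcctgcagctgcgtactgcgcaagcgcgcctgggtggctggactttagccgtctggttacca
Abhd14b: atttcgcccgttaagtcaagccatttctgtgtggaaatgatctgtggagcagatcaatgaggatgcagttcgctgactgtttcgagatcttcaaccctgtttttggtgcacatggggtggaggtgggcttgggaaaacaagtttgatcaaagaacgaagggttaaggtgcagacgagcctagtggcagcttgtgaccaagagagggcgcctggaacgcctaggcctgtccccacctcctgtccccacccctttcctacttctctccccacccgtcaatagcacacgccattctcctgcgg

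The core stood in the Gnat2 window at position -19 from the start, on the other strand, and in the Samd11 window at -193 as written and at -67 on the other strand. These letters were in none of the other 4 windows. Among all 32851 promoters of 300 bases in the table, 2320 (7.06%) held the core on either strand. Of the 262 genes, 199 had 1 or more promoters in the table, 243 in all, and 20 of these (8.23%) held it. The 6 called cone genes had 6 promoters there, and 1 held it, that of Gnat2. Samd11 is on no list and was chosen after its values were seen. A match describes letters and not a bound site, and no motif test was made.

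The identity of the retinas was checked before any gene was read. Rpe65 itself had ratios of 0.0433, 0.111 and 0.0542 in knockouts 1, 2 and 3 and of 1.74, 33.9 and 0.609 in controls 9, 10 and 11. Every knockout lay below every control, with a log2 difference of -5.69 ± 1.26 (adjusted p = 0.0421). The gene is dim in retina, since it belongs to the pigment epithelium, and the value of control 10 moved with the other pigment epithelium and melanocyte markers: their mean log2 ratio without Rpe65 was 0.02 in control 10, -3.02 in control 9, -2.78 in control 11, and -1.46, -1.01 and -0.73 in the knockouts. Rpe65 was thus higher in controls 9 and 11 than in knockouts that carried more of the other pigment epithelium markers. Where the probe set lies relative to the deleted part is not given in the sources used here.

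Lens markers, the crystallins and fibre proteins of the lens, differed between the 6 retinas far more than any retinal list. Their mean log2 ratio over 18 measured genes (7 of them dim) was -4.39 in knockout 1, 1.41 in knockout 2 and 5.26 in knockout 3, against -0.45, 1.08 and 1.14 in controls 9, 10 and 11. Knockout 3 therefore stood above every control, knockout 2 lay just above the highest of them and knockout 1 lay below all of them. None of the 18 lens genes passed the limma threshold, and none had an unadjusted p under 0.05 (0 genes). Cryaa, the alpha A crystallin, had ratios of 0.01 (the lowest value in the data), 4.50 and 16.8 in the knockouts and of 0.441, 1.85 and 3.39 in the controls. Leaving out knockouts 2 and 3, the pair with high lens signal, takes the lens excess away but leaves knockout 1, which has less lens signal than the controls: the list's median went from -0.41 to -5.47. Rod markers were clear in all 16 measured genes, and their mean log2 ratio lay between -0.14 and 0.35 in the 6 retinas. The arrays differed in 3 further ways. The submitters' processing notes name RMA for all 18 samples and GCOS for 16, and the 2 without GCOS are knockouts 1 and 2. Control 11 had the lowest actin 5′ to 3′ log2 difference of the 6 (-1.33, the others -0.996 to -0.764), a sign of RNA length. The median signal before scaling ran from 6.80 in control 11 to 13.9 in knockout 3.

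**Figure D1:**
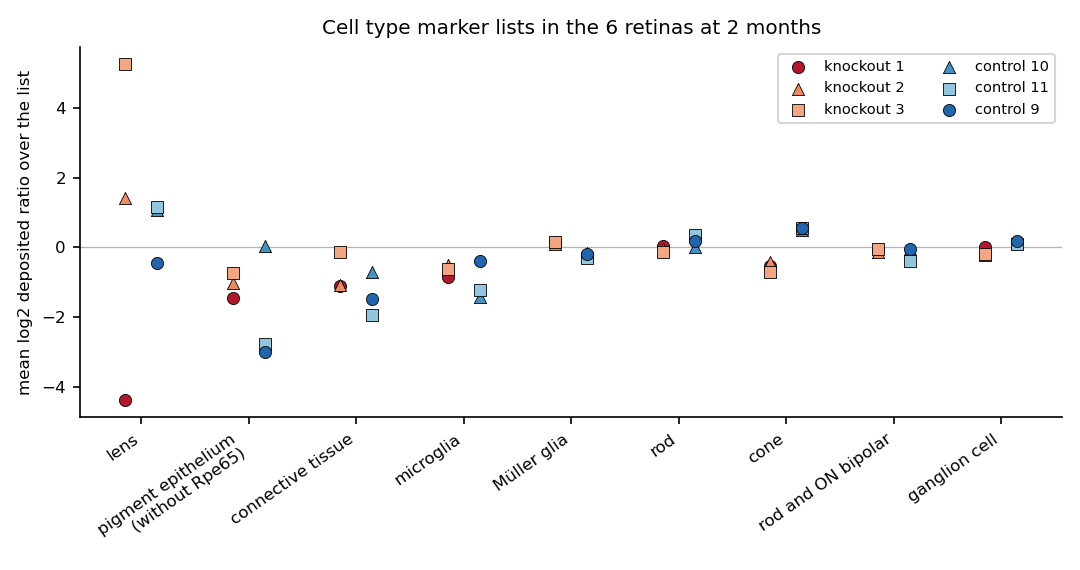
Mean log2 deposited ratio over each cell type marker list (vertical axis) in the 3 knockout retinas (red, circle 1, triangle 2, square 3) and the 3 control retinas (blue, circle 9, triangle 10, square 11) at 2 months, 1 point per retina. The lens list runs from -4.39 in knockout 1 to 5.26 in knockout 3, while the cone list lies lower in every knockout than in every control.

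Histidine decarboxylase, Hdc, the enzyme that makes histamine, showed the largest fall among genes with a clear signal. Its ratios were 0.0319, 0.0524 and 0.0148 in the knockouts and 2.12, 1.65 and 2.02 in the controls. The knockouts stood near the bottom of the range in every retina, and the log2 difference was -6.04 ± 0.58 (adjusted p = 8.91e-05). Because the knockout signal was so low, the size depends on the scale: on log2 of the signal plus 16 it was -2.46. Of the 22 measured genes of the monoamine and histamine list, 10 of them dim, Hdc alone passed, and the list's median was 0.01.

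Cone genes fell as a group: 6 of the 13 measured cone markers were lower in the knockouts, none was higher, and the list's median was -0.90 against -0.02 over all genes. The cone list was known to change from earlier results of these data and is given here as the base for what follows. Opn1sw, the short-wave opsin, had ratios of 0.226, 0.317 and 0.235 in the knockouts and 2.85, 2.82 and 3.68 in the controls. The groups were far apart (log2 difference -3.59 ± 0.25, adjusted p = 7.25e-06), and a further probe set of the gene gave -3.10. Arr3, the arrestin of cones, fell by 2.36 ± 0.25 on the log2 scale (adjusted p = 0.000217), and its 2 further probe sets gave -2.72 and -1.39. The cone transducin subunit Gnat2 (-1.49 ± 0.18), the cone phosphodiesterase subunits Pde6c (-1.80 ± 0.25) and Pde6h (-1.47 ± 0.21) and the potassium channel subunit Kcne2 (-1.52 ± 0.18) fell too. Opn1mw, the middle-wave opsin, did not pass, at -0.90 ± 0.32 (adjusted p = 0.269): control 11 (0.973) lay below knockout 2 (1.03).

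Genes that rods and cones share changed less and in both directions. Of 18 measured genes of shared phototransduction, 3 fell and 1 rose, with a median of -0.35. The 3 falls were the guanylate cyclase activator Guca1b (-0.78 ± 0.11), the anchor of the transducin switch-off complex Rgs9bp (-0.70 ± 0.13) and the interphotoreceptor retinoid carrier Rbp3 (-0.70 ± 0.15). Grk1, rhodopsin kinase, rose: its ratios were 1.65, 1.47 and 1.59 in the knockouts and 0.460, 0.454 and 0.430 in the controls, tightly grouped on each side (1.81 ± 0.37, adjusted p = 0.0262). A few other photoreceptor genes fell, where 0.879% of all genes were called lower. Fscn2, a fascin of the outer segment, differed by -1.11 ± 0.19. It was the 1 called gene among 13 of outer segment and disc structure, whose median was -0.16. Reep6, an endoplasmic reticulum protein of rods, fell by 0.86 ± 0.14 and was the 1 called gene among 16 rod markers, whose median was -0.31. Samd11, a protein of photoreceptor nuclei, had ratios of 0.393, 0.499 and 0.397 in the knockouts and 1.37, 1.36 and 1.67 in the controls (-1.77 ± 0.15, adjusted p = 2.87e-05). It stands on no list and was singled out after its values were seen.

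Within the retinoid cycle and retinoic acid list, Rpe65 and Rbp3 were the 2 called genes among 25 measured, and the median was -0.17. The cilium list covers intraflagellar transport and other cilium genes, proteins of motile cilia and flagella among them. It gave 2 rises and 1 fall among 30 genes. Cfap54, a protein of motile cilia, had ratios of 1.85, 1.65 and 1.89 in the knockouts against 0.360, 0.438 and 0.343 in the controls. All knockouts were high and all controls low, with a difference of 2.24 ± 0.17 (adjusted p = 1.47e-05). Ift57, a subunit of the intraflagellar transport complex, rose by 0.71 ± 0.12, and Mns1, a flagellar structure protein read by a dim probe set, fell by 2.27 ± 0.50. Among 7 measured proteins of the Usher complex, which links stereocilia and serves photoreceptors, 3 of them dim, Myo7a passed. This motor, myosin VIIa, had ratios of 0.208, 0.160 and 0.392 in the knockouts and 1.45, 1.69 and 1.62 in the controls, a 6.72-fold fall (-2.75 ± 0.31, adjusted p = 0.000314). At the ribbon synapse, 1 of 20 genes passed: Cacna2d4, the auxiliary subunit of the photoreceptor calcium channel, fell by 0.69 ± 0.15, and its 2 further probe sets gave -0.55 and -0.05.

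Agtr1a and Apela, of the neuropeptide and peptide receptor list, were among the 12 largest rises of clear genes with a symbol. Agtr1a, the type 1a receptor of angiotensin II, had ratios of 2.34, 2.79 and 1.63 in the knockouts and 0.0716, 0.0932 and 0.0723 in the controls. The 3 controls were alike and low, and the difference was 4.81 ± 0.69 (adjusted p = 0.00254), or 1.45 on log2 of the signal plus 16. Apela, a peptide ligand of the apelin receptor, rose by 1.82 ± 0.28 (further probe set 1.45), and the gene of the peptide cholecystokinin, Cck, rose by 1.24 ± 0.18. These were the 3 called genes among 30 of the neuropeptide and peptide receptor list, 15 of them dim, with a median of -0.06. Over all genes 0.561% were called higher. Edn2, a photoreceptor-derived endothelin of the same list, had a difference of 2.71 ± 0.69 and did not pass (adjusted p = 0.0858).

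Growth factor, glial and inflammatory lists gave few calls each. Fgf2, fibroblast growth factor 2, had ratios of 2.89, 2.64 and 1.74 in the knockouts against 0.724, 0.282 and 0.0700 in the controls, which spread widely among themselves. It rose by 3.29 ± 0.66 (adjusted p = 0.0254) and was the 1 called gene both of 29 growth factor genes (median 0.18) and of 20 gliosis and stress genes (median 0.40). Nudt6, a nudix hydrolase gene that overlaps Fgf2, rose by 1.91 ± 0.23 (adjusted p = 0.000682), although its further probe set gave 0.16. Gfap, the filament protein of reactive glia, had a difference of 0.06 ± 0.53. Il18, a cytokine of the interleukin 1 family, rose by 1.32 ± 0.23 and was the 1 called gene of 23 cytokine and chemokine genes. Of 21 Notch genes, the receptor Notch2 (0.85 ± 0.17) and the target gene Hey2 (0.93 ± 0.19) rose. None of 14 complement, 14 antigen presentation, 19 interferon and 27 cell death genes passed in the limma fit, where 1, 0, 2 and 3 of them had an unadjusted p under 0.05. Of these genes 9, 8, 6 and 12 were dim. With 1.44% of all genes past the threshold, lists this short without a call say little about their functions. None of the 15 microglia and macrophage markers, 9 of which were dim, passed either, and 2 had an unadjusted p under 0.05. Müller glia had 1 rise among 13 markers, Crym, a thyroid hormone binding crystallin (0.69 ± 0.15), with a list median of 0.34.

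Ion transport and metabolism gave few calls, spread over several lists. Fxyd6, a regulator of the sodium pump, had ratios of 0.328, 0.152 and 0.322 in the knockouts and 2.20, 2.18 and 2.51 in the controls. The controls were high and tightly grouped, and the fall was 9.08-fold (-3.18 ± 0.30, adjusted p = 8.91e-05). The amino acid carrier Slc38a3 (-0.78 ± 0.14, further probe set -0.26) and the water channel Aqp1 (-0.69 ± 0.15) fell as well. On the transporter list 3 of 26 genes were thus lower and none higher, against 0.879% of all genes called lower. Scn2b, a beta subunit of sodium channels, rose by 0.82 ± 0.11, the 1 call among 23 sodium and potassium channel genes, but a further probe set gave -4.05. Hexokinase 2, Hk2, fell by 0.92 ± 0.17 and was the 1 call among 20 glycolysis genes (median -0.18). None of 27 oxidative phosphorylation genes and none of 22 of the tricarboxylic acid cycle passed in the limma fit, with 1 unadjusted p under 0.05 in each list. In lipid metabolism the long-chain elongase Elovl2 fell by 1.19 ± 0.18 (1 of 27 genes), and 2 of 28 cholesterol genes fell: the desaturase Sc5d (-1.03 ± 0.16, with further probe sets at 0.06 and 0.15) and the dim Apoa4, an apolipoprotein (-3.00 ± 0.62).

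Gsr, glutathione reductase, was the 1 called gene of 28 antioxidant and glutathione genes. Its ratios were 1.11, 1.15 and 1.19 in the knockouts and 0.333, 0.407 and 0.424 in the controls. Both groups were narrow, and the rise was 2.98-fold (1.57 ± 0.12, adjusted p = 1.64e-05), while a further probe set showed no difference (-0.00). Glb1l3, a relative of the lysosomal beta-galactosidase, had ratios of 0.148, 0.0746 and 0.139 in the knockouts and 1.17, 1.02 and 1.52 in the controls (-3.41 ± 0.32, adjusted p = 8.74e-05), the 1 call of 27 autophagy and lysosome genes. Heat shock (19 measured genes), endoplasmic reticulum stress (22), proteasome (23), ribosomal protein (17) and splicing (28) lists had no call by limma. In that fit 2, 5, 0, 1 and 2 of their genes had an unadjusted p under 0.05, against 2081 of all 18193. Lists this short without a call say little about their functions.

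Genes of gene regulation and of other tissues completed the calls on lists. Mef2c, a transcription factor of photoreceptors and neurons, fell by 0.98 ± 0.13, and 4 further probe sets lay between -1.29 and -1.14. It was the 1 call of 28 retinal transcription factors. Per3, a clock gene, fell by 0.64 ± 0.13 (1 of 21 clock genes, median -0.23), and the linker histone H1f2 fell by 0.92 ± 0.19 (1 of 25 chromatin genes). Sox30, a transcription factor of sperm formation, had ratios of 2.37, 2.62 and 2.10 in the knockouts and 0.137, 0.171 and 0.01 in the controls. It rose most of all clear genes (5.25 ± 0.75, adjusted p = 0.00249), and by 2.42 on log2 of the signal plus 16. The meiosis and sperm list held 18 dim genes among 22; its other calls were the dim genes Iqcm (6.32 ± 0.91) and Tbc1d21 (3.85 ± 0.86), higher, and the dim sperm tail gene Odf4 (-2.75 ± 0.61), lower. The dim mitotic spindle gene Prc1 rose by 2.62 ± 0.56 and was the 1 call among 29 cell cycle genes. Of the 14 ganglion cell markers 1 passed: the transcription factor Pou4f1 fell by 2.34 ± 0.48 (adjusted p = 0.0271), with a further probe set at -0.20. Among 12 vessel markers the pericyte gene Rgs5 fell by 1.06 ± 0.21, and among 34 matrix genes the dim integrin Itga1 fell by 4.15 ± 0.64.

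Over the 44 function lists, 38 of 1007 measured genes passed (3.77%, against 1.44% of all genes), 16 higher and 22 lower. There were 25 lists with at least 1 call. In the other 19 lists, with 425 measured entries, limma gave 44 unadjusted p-values under 0.05 and no call. No list had more than 4 calls, and none of the 44 medians lay farther from 0 than 0.40. Leaving out 1 retina lowered the 38 calls to 21 without knockout 2, 22 without knockout 3, 23 without control 11, 24 without knockout 1 and 25 without control 9. The lists were drawn up with earlier results of these data known, so their share of calls is a description.

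**Figure D2:**
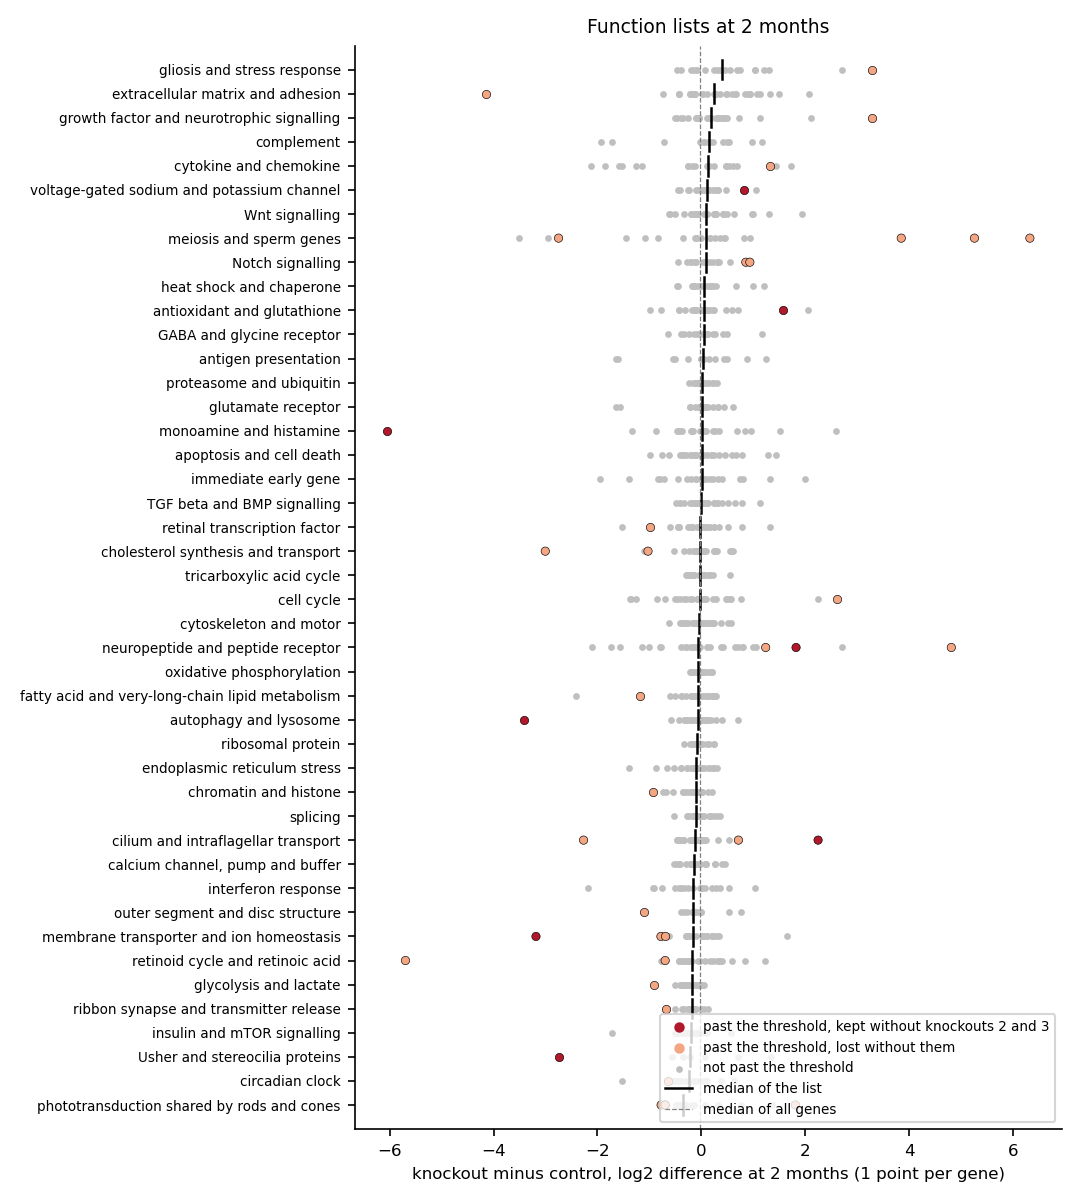
Log2 difference of knockout minus control at 2 months (horizontal axis) for every measured gene of the 44 function lists, 1 point per gene and 1 row per list, ordered by list median (black bar). Dark red points passed the threshold with and without knockouts 2 and 3, light points passed with all retinas but not without that pair, and grey points did not pass; the list medians stay between -0.35 and 0.40 while single genes reach -6.04 and 6.32.

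Several of the 12 largest rises and falls stood on no list. Nat1, an arylamine acetyltransferase, had ratios of 1.32, 1.53 and 1.11 in the knockouts and 0.110, 0.132 and 0.231 in the controls (3.12 ± 0.40, adjusted p = 0.000957). Every knockout was above its usual level and every control far below. Cuedc1, whose CUE domain is of a type that binds ubiquitin, rose by 2.24 ± 0.12, but 2 further probe sets gave -0.00 and 0.23. Agfg2, a protein related to ARF GTPase activators, rose by 2.10 ± 0.35 and the membrane protein Tmem26 by 2.01 ± 0.33. Among the falls, Rmst, a long non-coding RNA, had ratios of 0.0230, 0.0720 and 0.370 in the knockouts and 2.40, 2.40 and 2.85 in the controls. The knockouts were all low but spread widely among themselves, and the difference was -4.90 ± 0.67 (adjusted p = 0.00178). Esco1, an acetyltransferase of cohesin, fell by 2.47 ± 0.15 with a further probe set at 0.37. Ppcdc, an enzyme of coenzyme A synthesis, fell by 3.43 ± 0.64 with a further probe set at -0.09. Amacr, a racemase of branched-chain fatty acid breakdown, fell by 2.24 ± 0.33.

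The neighbours Abhd14a and Abhd14b, both alpha/beta hydrolases, changed in opposite directions. Abhd14a had ratios of 0.290, 0.233 and 0.305 in the knockouts and 1.92, 1.62 and 1.86 in the controls (-2.71 ± 0.17, adjusted p = 1.80e-06, further probe set -1.69). Abhd14b had ratios of 1.43, 1.66 and 1.51 in the knockouts and 0.438, 0.490 and 0.365 in the controls (1.84 ± 0.14, adjusted p = 1.47e-05). Neither pair of groups overlapped, and the spans of the 2 genes on chromosome 9 overlap. Chromosome 9 held 39 of the 262 genes (14.9%) and 1002 of the 18193 tested (5.51%). Several genes named above for their functions were among the 39: Fxyd6, Glb1l3, Ppcdc, Slc38a3, Scn2b, Cck and Il18. The strain labels of the groups differ, and the cause of the chromosome 9 share was not tested.

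Other probe sets of the same genes were a check on single readings. Of the 262 genes, 103 had further clear probe sets, 162 in all, of which 137 had the sign of the call. At least 1 opposite sign occurred in 23 genes.

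Single retinas decided some of the named calls. Of the 60 genes named by rule, 35 passed whichever retina was left out and 25 lost the call with at least 1 left out. The 8 that lost it whichever retina was left out were Grk1 (adjusted p from 0.0744 to 0.0932 over the 6 omissions), Pou4f1 (0.0698 to 0.10), H1f2, Hey2, Rgs5 and the dim Mns1, Odf4 and Tbc1d21. Fgf2 lost it in 5 omissions, all but that of control 9, with differences from 2.39 to 4.07. Rpe65 lost it in 5, all but that of control 11, with differences from -6.91 to -4.01. Crym kept it only without control 11, and Prc1 only without control 9. Aqp1 kept it only without knockout 3, Cacna2d4 only without control 10, and Apoa4 only without knockout 1. Ppcdc kept it without knockout 1 or 3, and Rgs9bp without control 9 or 10. Hk2, Rbp3 and Slc38a3 kept it without knockout 1 or control 10, Notch2 without knockout 2 or control 10, and Per3 without knockout 3 or control 9. Dleu7 lost it without knockout 2 or 3 or control 10, Il18 without knockout 3 or control 11, and Ift57 without knockout 1 (adjusted p = 0.0510).

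**Figure D3:**
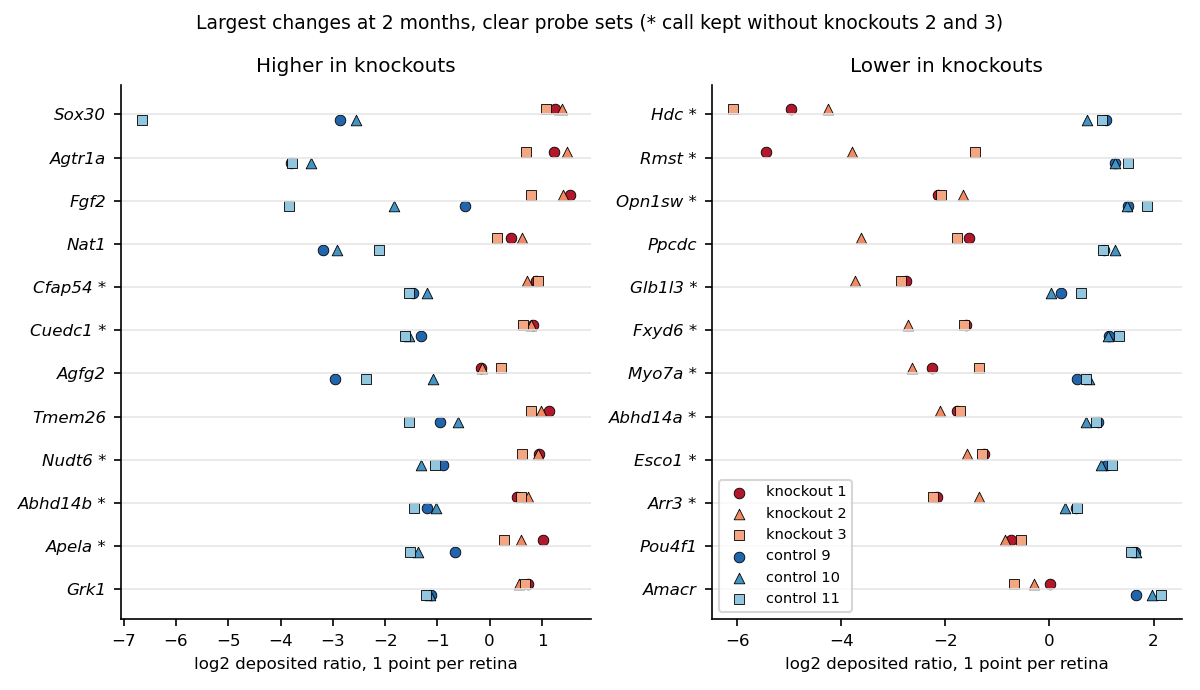
Log2 deposited ratio (horizontal axis) of the 12 largest rises (left) and the 12 largest falls (right) among called genes with a clear probe set and a gene symbol, 1 point per retina, knockouts red and controls blue. The 3 knockouts lie on 1 side of the 3 controls in all 24 genes; asterisks mark the genes that also passed without knockouts 2 and 3.

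Leaving out knockouts 2 and 3, the pair with high lens signal, left 71 calls (0.390% of all genes), 18 higher (0.0989%) and 53 lower (0.291%). Of the 262 genes, 50 kept their call (19.1%), 16 higher and 34 lower, and 46 of them were clear. The comparison then sets knockout 1 alone against 3 controls, with the spread taken from the other groups, so that lone retina is assumed to vary like them. All 262 genes kept their direction, which the separation of the groups already fixes. The sizes of the 212 lost genes hardly moved: their median was 0.99 with all retinas and 0.97 without the pair, and 2 shrank by more than a factor of 2. The median error over the called genes went from 0.177 to 0.255. A call needs knockouts that agree relative to the spread, so the small movement in size was partly fixed by the choice of genes. What part lens signal had in these sizes was not tested. The kept genes were the larger ones, with a median size of 1.84 before and 1.86 after. Leaving out either other pair cost somewhat fewer calls: without knockouts 1 and 2, the pair without GCOS in the processing notes, 78 of the 262 genes kept their call, and without knockouts 1 and 3 it was 62.

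The kept calls fell on 8 of the 25 function lists with a call and on the cone list. Hdc (-5.91 ± 0.77, adjusted p = 0.0061 without the pair), Rmst (-6.79 ± 0.35), Myo7a (-2.93 ± 0.35), Glb1l3 (-3.05 ± 0.42) and Fxyd6 (-2.80 ± 0.35) kept the call. Of the 6 cone genes, Opn1sw (-3.77 ± 0.36), Arr3 (-2.60 ± 0.30) and Gnat2 (-1.70 ± 0.24) kept it. Pde6c (adjusted p = 0.0740), Pde6h (0.0544) and Kcne2 (0.0546) did not, with differences of -1.52, -1.50 and -1.41. Cfap54 (2.29 ± 0.25), Cuedc1 (2.32 ± 0.18), Nudt6 (2.03 ± 0.35), Abhd14b (1.74 ± 0.21), Apela (2.22 ± 0.38), Gsr (1.53 ± 0.19) and Scn2b (0.94 ± 0.17) kept their rise. Abhd14a, Esco1 and Samd11 kept their fall. The function lists were left with 1 kept gene in each of 8 lists: Cfap54, Myo7a, Hdc, Apela, Scn2b, Gsr, Glb1l3 and Fxyd6.

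The remaining kept genes with a symbol are named because the comparison turns on them, a choice made after their values were seen. Lower were the MAP kinase phosphatase Dusp4 (-1.57 ± 0.17 with all retinas) and the vesicle fusion protein Vamp3 (-1.47 ± 0.12, with 4 further probe sets from -0.45 to 0.12). The lipid kinase Pip4k2c (-1.43 ± 0.13, further probe set -0.49) and the phospholipid acyltransferase Mboat2 (-1.40 ± 0.19, further probe set -0.03) were lower too. The RNA binding protein Msi2 (-1.90 ± 0.22, with 6 further probe sets from -0.91 to 0.02) and the GTPase activator Arhgap31 (-1.84 ± 0.18, further probe set -1.83) were also lower. The potassium channel beta subunit Kcnab2 (-0.97 ± 0.11, further probe set -0.55) and the lymphocyte adaptor Sh2d1a (-2.05 ± 0.20) were lower as well. So were Heatr5a, Tmem18, Nxpe4, Tmc7, Prxl2c (further probe set 1.26), the dim Atpsckmt, the non-coding RNAs Cep83os and Dubr, and Jchain, the joining chain of antibodies. Higher were the scaffold protein Iqgap1 (1.29 ± 0.14, with 3 further probe sets from 0.51 to 1.42), the Mediator subunit Med1 (1.27 ± 0.14, with 3 further probe sets from -0.40 to 0.35) and the mitochondrial ribosome protein Mrpl3 (0.99 ± 0.11, with 3 further probe sets from -0.23 to 0.75). Wdfy1 (1.32 ± 0.16, further probe sets 1.52 to 2.26), Lsm12 (1.66 ± 0.17) and Rwdd4a (1.26 ± 0.18) were higher too. Another 9 kept genes carry only numbered names.

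Among the lost calls were 5 of the largest rises. Without the pair Sox30 stood at 5.26 ± 1.15 (adjusted p = 0.102), Agtr1a at 4.90 ± 1.05 (0.0947), Fgf2 at 3.57 (0.237), Nat1 at 3.14 ± 0.60 (0.0566) and Agfg2 at 1.96 ± 0.53 (0.219). Fgf2 moved most of the 5, and upwards. The 5 largest lost falls were Ppcdc (-2.66 ± 0.82, 0.324), Pou4f1 (-2.37 ± 0.73, 0.323), Amacr (-1.91 ± 0.48, 0.166), Dleu7 (-1.33 ± 0.49, 0.498) and Pde6c (-1.52 ± 0.31). Dleu7 moved most: its ratio was 1.02 in knockout 1 against 0.435 and 0.412 in knockouts 2 and 3, with controls at 2.58, 2.88 and 2.23. Rpe65 also lost its call, at -6.25 ± 1.90 (adjusted p = 0.321).

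**Figure D4:**
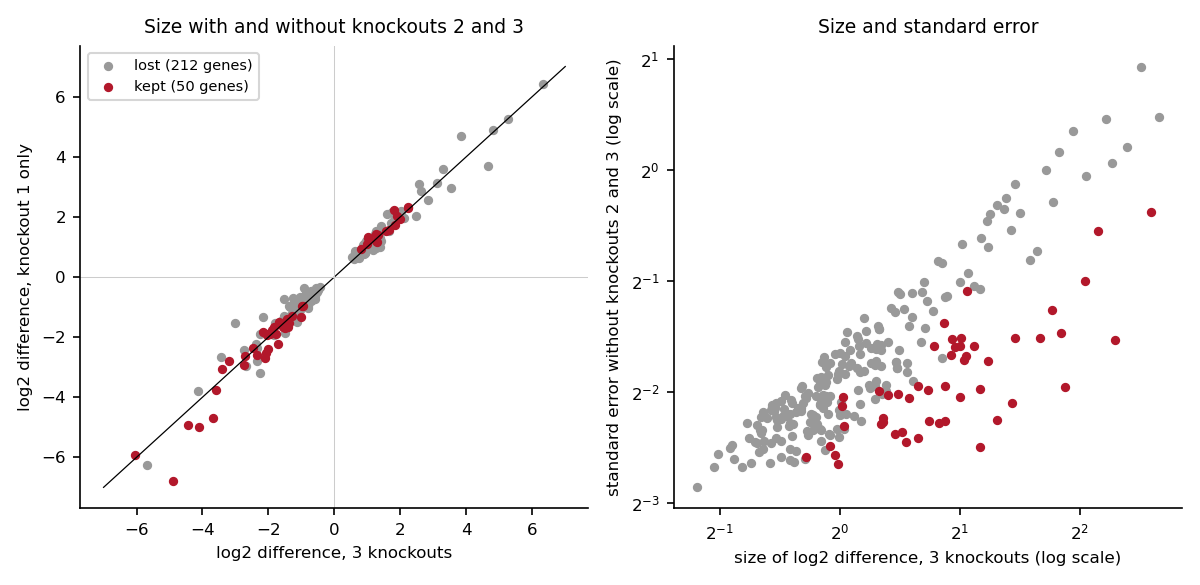
Left, log2 difference of the 262 called genes with all 3 knockouts (horizontal) and with knockout 1 alone (vertical), the line marking equality. Right, size of the difference with all retinas against the standard error without knockouts 2 and 3, both on log scales; the 50 kept genes (red) lie where the size is large relative to the error, and at left both kept and lost (grey, 212 genes) lie close to the line.

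With the lens signal of each array as a covariate and all 6 retinas in place, 233 genes passed, 220 of them among the 262, and all 50 kept genes passed in this fit too. With the pigment epithelium signal without Rpe65 as a covariate 183 genes passed, 159 of them among the 262. Averaging the probe sets of each gene gave 202 calls, 144 of them among the 262. With the sex read from Xist as a covariate 152 genes passed, 142 of them among the 262. Because the 3 knockouts read as male and 2 of 3 controls as female, sex and genotype are partly tied at this age. Of 22 alternative settings, 21 keep the arrays of the later ages in the fit, and 26 genes passed in all of these that tested them. Among the 26 were Hdc, Opn1sw, Arr3, Myo7a, Fxyd6, Glb1l3, Abhd14a, Abhd14b, Cfap54, Nudt6, Gsr, Dusp4, Samd11 and Rmst. The other setting, a fit to the 6 arrays of 2 months alone, called 39 genes.

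The retinas of 4 and 6 months are other arrays with their own controls, and they were used to see which changes of 2 months were present later. The difference at each age comes from the arrays of that age. The spread of a gene was estimated once over all ages, so its SE is the same at 2, 4 and 6 months. A gene with a small SE therefore passes more easily at every age, and the shared calls below are not independent counts. The comparison of kept with lost genes shares this limit. At 4 months 224 genes passed (1.23% of all genes) and at 6 months 205 (1.13%). Of the 262 genes, 129 also passed at 4 months, which is 49.2% of the genes of 2 months and 57.6% of those of 4 months. At 6 months 123 passed, 46.9% of the genes of 2 months and 60% of those of 6 months. None passed in the opposite direction. Both later ages were passed by 103 genes (0.715% of all genes passed both) and at least 1 of them by 149 (1.64%). The sign was the same at both later ages in 225 of the 235 clear genes and in 16 of the 27 dim ones. The same count was not made over all genes, so these 2 counts have no base to be read against. Of the 50 kept genes, 38 passed at both later ages and 43 at 1 or more, against 65 and 106 of the 212 lost genes.

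The named genes followed different courses. Opn1sw differed by -4.91 ± 0.25 at 4 months and -5.45 ± 0.25 at 6 months. Hdc stood at -4.45 ± 0.58 at both later ages. Agtr1a, lost without the pair of 2 months, differed by 5.62 ± 0.69 at 4 months (adjusted p = 0.000852) and 4.85 ± 0.69 at 6 months (0.00255), and Sox30 by 3.44 ± 0.75 (0.0417) and 4.03 ± 0.75 (0.0179). Grk1 stood at 2.07 ± 0.37 and 1.70 ± 0.37 and passed at both ages, as did Cfap54, Cuedc1, Nudt6, Abhd14b and Abhd14a. Fgf2 was 1.75 ± 0.66 (0.305) and 1.78 ± 0.66 (0.353) and did not pass again. Rmst was -2.38 ± 0.67 and -2.30 ± 0.67 and did not pass at either age. Of the photoreceptor genes with smaller falls at 2 months, Guca1b, Rgs9bp, Rbp3 and Fscn2 passed at neither later age, with differences from -0.70 to -0.40. Reep6 did not pass at 4 months (-0.53, adjusted p = 0.103) and passed at 6 months (-0.65, adjusted p = 0.0449).

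**Figure D5:**
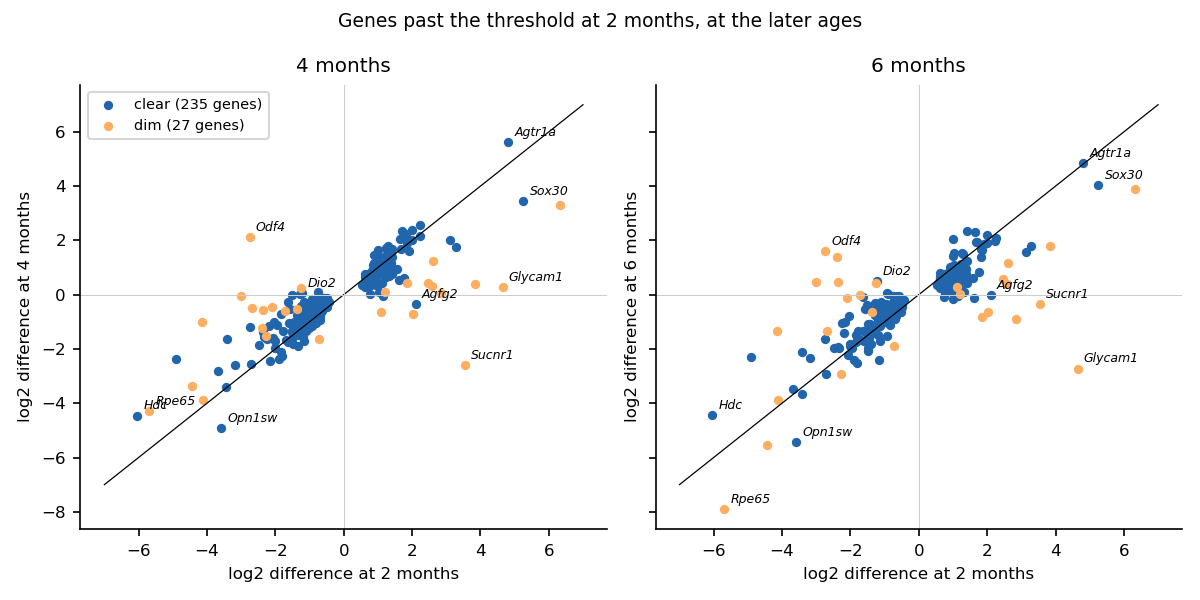
Log2 difference of knockout minus control at 2 months (horizontal) against that at 4 months (left) and 6 months (right) for the 262 genes called at 2 months, clear genes in blue and dim genes in orange, the line marking equality. Most clear genes lie on the same side of 0 at each age, whereas dim genes such as Odf4, Sucnr1 and Glycam1 change sign.

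Whether a change was particular to 2 months was tested as the difference between the effect at 2 months and the mean of the effects at 4 and 6 months. In the limma fit no gene passed (0%, lowest adjusted p = 0.266), 999 genes had an unadjusted p under 0.05 (5.49%), and 79 of the 262 were among them. The 262 were chosen by the same 2 month difference that enters this contrast, which raises their share. As no gene passed, the 113 genes that passed at 2 months and at neither later age were not shown to differ between ages. Of the genes named above, 3 passed this test under an alternative setting. Agfg2 stood at 2.10 ± 0.35 at 2 months, -0.36 ± 0.35 at 4 months and -0.00 ± 0.35 at 6 months, and it passed without control 10 (2.80, adjusted p = 0.00445) and with the pigment epithelium covariate (2.18, adjusted p = 0.0317). Rmst passed without knockouts 2 and 3 (-4.45, adjusted p = 0.00225) and without knockouts 1 and 3 (-2.80, adjusted p = 0.0404), against -2.56 (0.731) with all retinas. The dim Apoa4 passed without knockouts 1 and 2 (-4.87, adjusted p = 0.0163), against -3.21 (0.479) with all retinas. Dio2, the enzyme that activates thyroid hormone, was singled out after its values were seen. Its ratios were 1.02, 1.16 and 0.927 in the knockouts and 1.99, 2.48 and 2.89 in the controls at 2 months. It fell by 1.23 ± 0.20 there, stood at 0.06 ± 0.20 at 4 months and 0.51 ± 0.20 at 6 months, and passed this test on log2 of the signal plus 16 (-1.21, adjusted p = 0.0396) and not on the ratio (0.266). Its further probe sets at 2 months gave -1.04 and -0.15.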

How the data were processed

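Total RNA of mouse retina was extracted with Trizol and hybridised with biotin label, per the labels' protocols, on 1 array per retina. The deposited values are ratios on a linear scale for 45101 probe sets. The submitters' processing notes name RMA (18 samples) and GCOS (16 samples) without version or order, and the values are not on the scale RMA gives, so the authors' summary of probes is not settled here. From the values, each deposited ratio is a signal in steps of 0.1 divided by an array factor and by the probe set's median over the 18 arrays, or by a fixed divisor where that median was lower (dim); 0.01 is the lowest value. The number of arrays limits the precision.

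Platform annotation named 1 gene for 34945 probe sets, several for 932 and none for 9160; 64 control sets were left out. The probe set with the highest mean signal represented each of 18193 genes. No value was filtered.

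Log2 ratios were fitted with limma 3.58.1 (R 4.3.3) as 6 group means over 18 arrays with 12 residual degrees of freedom, two-sided and adjusted with Benjamini-Hochberg over all genes; the fit was tested on simulated data. The fit without knockouts 2 and 3 had 10. P-values measure the spread between retinas. Named genes were Rpe65, the 12 largest rises and falls among clear, separated, called genes with a symbol, the 5 largest lost each way, and called members of 61 lists with up to 3 others; other names are said to be chosen after their values were seen. The members and lists were chosen with earlier results of these data known. Lists covered 44 functions and 17 cell types; the lists without a call in the limma fit and not described above were bipolar, horizontal, amacrine, blood, connective tissue, muscle, corneal and sex markers, and glutamate, GABA and glycine receptor, calcium, immediate early, Wnt, TGF beta, cytoskeleton and insulin genes.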

Additional observations from a re-analysis of the deposited data

Results flagged for a closer look

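The report reads only probe sets that name 1 gene. Among the 9160 that name none, 82 passed the threshold at 2 months, 20 higher and 62 lower in the knockouts, a signal in data outside the comparisons above. Of the 82, 27 also passed without knockouts 2 and 3, and 21 were dim. With 3 retinas per group, no group was large enough for a search for single outlying retinas.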

How the results depend on the processing

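Under 22 alternatives, 60 named genes gave 1305 values: 955 kept direction and call, 348 kept direction without the call and 2 reversed, Notch2 (-0.078) and Scn2b (-1.45), both when a gene's probe sets were averaged. The 262 calls became 39 with only the 6 arrays of 2 months, 152 with the sex covariate, and 164, 90 and 71 without knockouts 1 and 2, 1 and 3, or 2 and 3; with 1 retina left out they ranged from 144 to 184. For the same settings the 38 list calls became 9, 22, 23, 7 and 9, and 21 to 26 with 1 retina left out. The 103 genes called at all 3 ages became 64 with probe sets averaged, 62 with the lens and 68 with the pigment epithelium covariate, and 51, 46 and 41 without those pairs. The early contrast, with no call, gave 1 on log2 of the signal plus 16, 6 with the pigment epithelium covariate, and 29, 6 and 6 without those pairs; with 1 retina left out it gave 0 to 1. The 50 kept genes became 102 without the dimmest 40% of genes, 98 without dim genes, 82 after quantile normalization and 103 on log2 of the signal plus 16, but 30 with probe sets averaged, 7 with the lens covariate and 0 with only the 6 arrays, where fewer samples estimate the spread; the cause of the other shifts was not tested. No paired analysis was possible because the compared groups share no retina number (1, 2 and 3 against 9, 10 and 11). Limits: knockout 1 alone carries the comparison without high lens signal, 38.0% of genes were dim, and strain, sex and genotype are partly or wholly tied at this age.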

Other observations

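Some called genes outside the lists are given here singly. They were picked after their values were seen, and nothing is said of any group they belong to. Lower in the knockouts were the phosphatidate phosphatase Lpin1 (-1.11 ± 0.17), the lipid droplet protein Hilpda (-1.04 ± 0.24), the acyltransferase Mogat1 (-1.27 ± 0.22) and the peroxisomal oxidase relative Acoxl (-1.52 ± 0.34). The Lpin1 ratios were 0.715, 0.845 and 0.857 in the knockouts and 1.82, 1.56 and 1.84 in the controls, apart in every retina. Lpin1 passed again at 4 months (-1.34 ± 0.17) and 6 months (-0.99 ± 0.17), while Mogat1 (0.02 and -0.30) and Acoxl (-0.01 and -0.37) passed at neither. None of the 4 kept its call without knockouts 2 and 3.

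Other single genes that were lower were the DNA damage kinase Atm (-1.22 ± 0.21, further probe set -0.25), the repair protein Brca2 (-0.90 ± 0.16) and the histone variant H2ax (-0.69 ± 0.15). Atm and H2ax passed at both later ages, and Brca2 (-0.30 and 0.01) did not. The peptide amidating enzyme Pam (1.40 ± 0.32) and the peptidase that breaks down thyrotropin-releasing hormone, Trhde (1.66 ± 0.29), were higher, and the neurokinin B gene Tac2 (-1.22 ± 0.16) was lower. All 3 lost the call without knockouts 2 and 3. Trhde passed at 4 months (2.04 ± 0.29) and 6 months (2.32 ± 0.29).

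Some of the dim genes called at 2 months changed sign between ages. Sucnr1, a receptor of succinate, had ratios of 0.249, 0.443 and 0.460 in the knockouts and 0.0609, 0.0285 and 0.0185 in the controls at 2 months (3.54 ± 0.75), and stood at -2.59 ± 0.75 at 4 months. Glycam1, a mucin-like adhesion protein, was 4.65 ± 0.95 at 2 months and -2.72 ± 0.95 at 6 months. Neither difference at the later age passed the threshold.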
